A study of Mus musculus with 6 samples.

Results

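A set of 10 genes that mark retinal ganglion cells (RGCs) or build the cytoskeleton of their axons were followed across 6 RNA-Seq libraries of sorted retinal cells. They were *Rbpms*, *Thy1*, *Pou4f1*, *Sncg*, *Nefl*, *Nefm*, *Nefh*, *Ina*, *Tubb3* and *Stmn2*, which are 10 of the 55573 genes in the count table. The genes were chosen by name for their known roles, and all 10 had enough counts to be tested. All mice were adult C57BL/6J of both sexes, and every group carried a virus and an injury. The control group (3 libraries) received AAV2-*GFP* in the vitreous, and the *Ezh2* overexpression group (3 libraries) received AAV2-*Ezh2*. The optic nerve crush (ONC) was made 2 weeks after the injection, and cells were sorted 3 days after ONC. There was no uninjured group among these libraries. An adeno-associated virus of serotype AAV2 given in the vitreous can also enter cells other than RGCs, and the sort did not select cells that carried it.

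RGCs are the output neurons of the retina, and their axons form the optic nerve. Neurofilaments are heteropolymers of light, medium and heavy chains together with alpha-internexin, and they set the calibre of the axon. Microtubules, made of alpha and beta tubulin, are the tracks for axonal transport, and stathmins bind free tubulin and keep it from polymerizing.

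The sort selected cells with CD90.2, the protein product of *Thy1*, on their surface and excluded cells that took up a dead-cell dye. *Thy1* is also expressed by mouse T cells, so the marker does not belong to RGCs alone. The levels of the marker genes in the libraries were therefore examined first. Together the 10 genes held between 0.0137% and 0.0177% of the counts of a library, and *Thy1* alone gave between 59.6% and 65.5% of that. Some transcription factors that define RGCs were near 0. *Pou4f1* was counted 12, 19 and 0 times in the GFP libraries (replicates 1 to 3 in order, here and throughout) and 16, 9 and 14 times in the Ezh2 libraries, and *Pou4f2* had between 0 and 3 counts in any library. Of 20 further RGC genes, 6 had too few counts to be tested, among them *Pou4f2*, *Opn4* and *Atoh7*, and 14 had enough. Of these 14, *Jam2* was at 103 ± 1.35 CPM (SD, n = 3 GFP libraries; CPM are counts relative to the total of the library), *Isl1*, a transcription factor that amacrine and bipolar cells also make, at 10.6 ± 1.30 CPM, and *Slc17a6*, the glutamate transporter of RGC synapses, at 4.50 ± 0.449 CPM. In contrast, *Glul*, the glutamine synthetase of Müller glia, was at 9540 to 9900 CPM in the GFP group, between 68.9 and 70.0 times the summed CPM of the 10 genes. In Ezh2 replicates 1, 2 and 3 this ratio was 39.5, 41.6 and 30.7. *Glul* itself was lower there, at 6937, 6898 and 5446 CPM. The summed CPM of the 10 genes was 176, 166 and 177 in these libraries, against 137 to 143 in the GFP group. The 9 endothelial and mural markers summed to 2685 to 2840 CPM in the GFP group, and which cells gave the *Jam2* counts was not tested. The libraries were labelled as RGCs. The RGC list was thus detected in part, with some defining markers near 0 beside abundant *Glul*, and the samples are called sorted retinal cells here. *Glul*, *Isl1*, *Slc17a6* and the untested genes named were singled out after their values were seen.

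Compared per length, as CPM per kilobase of merged exons, *Thy1* was far above the other members at 30.1 ± 0.911 (SD, n = 3 GFP libraries). It was followed by *Tubb3* at 3.61 ± 0.443, *Nefl* at 3.05 ± 0.314, *Rbpms* at 2.65 ± 0.134, *Sncg* at 2.26 ± 0.197 and *Ina* at 1.57 ± 0.219. *Nefh* at 0.650 ± 0.0552, *Stmn2* at 0.550 ± 0.0626, *Nefm* at 0.465 ± 0.0503 and *Pou4f1* at 0.0708 ± 0.0653 were the lowest. The ranges of neighbours overlapped between *Tubb3* and *Nefl*, between *Nefh* and *Stmn2* and between *Stmn2* and *Nefm*, so the order within these pairs was not larger than the spread between libraries. On the same scale *Thy1* lay above 93.7% of all tested genes, *Tubb3* above 48.7%, *Nefl* above 45.0% and *Pou4f1* above 1.04%. *Cd4*, a coreceptor of helper T cells, was at 25.4 ± 1.87 and *Csf1r*, the receptor of microglia and macrophages, at 89.4 ± 4.31. *Thy1* was the only one of the 10 genes above *Cd4*. When the longest transcript was used as the length, *Rbpms* moved from rank 4 to rank 2.

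**Figure D1:**
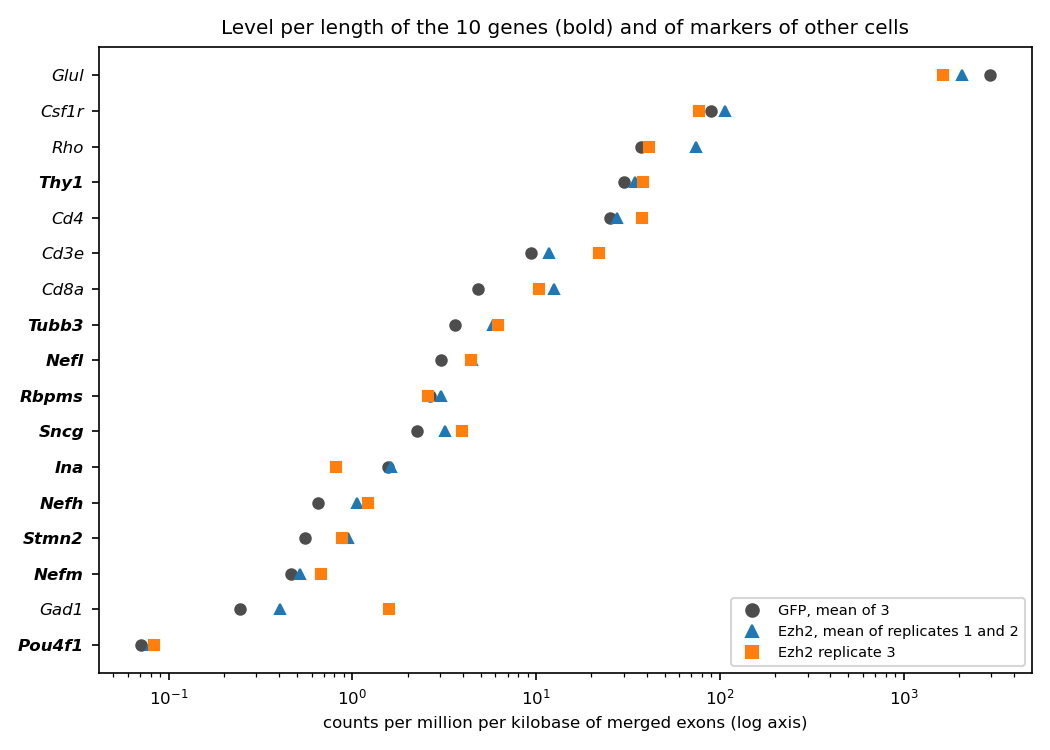
Level per length (CPM per kilobase of merged exons, log axis) of the 10 genes (bold) and of 7 markers of other cells, as the mean of the 3 GFP libraries (circles), the mean of Ezh2 replicates 1 and 2 (triangles) and Ezh2 replicate 3 (squares). *Glul* lies highest and *Pou4f1* lowest, and *Thy1* is the only one of the 10 genes above *Cd4* in the GFP group.

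Some marker lists of other cells also differed between the groups, and 1 library stood apart. Ezh2 replicate 3 had a weight of 0.165 when libraries were weighted by quality, against 1.08 to 1.84 for the others. The study left out 1 Ezh2 library, inferred to be this one, so the fold changes of the 10 genes are given for 5 libraries (without Ezh2 replicate 3) and for all 6. The summed level of 15 T cell markers was 639 to 682 CPM in the GFP group, 828 to 871 CPM in Ezh2 replicates 1 and 2 and 1466 CPM in Ezh2 replicate 3. All 15 of these T cell markers had a positive log2 fold change in 5 libraries, and 2 (*Cd8a* and *Cd8b1*) were called in both fits (adjusted p under 0.05 and a fold above 1.5, which 3.73% of all tested genes passed in 5 libraries and 2.41% in 6). The 7 cone markers, of which 7 were called in 5 libraries and 2 in 6, summed to 28.5 to 28.8, 57.1 to 65.8 and 38.5 CPM in the same order. The 8 rod markers, of which 3 were called in 5 libraries and 0 in 6 (3 at an unadjusted p under 0.05, edgeR), summed to 401 to 471, 713 to 756 and 423 CPM. The 7 Müller glia markers, of which 1 (*Apoe*) was called higher in both fits and 0 lower, summed to 23622 to 24122, 22500 to 24044 and 18366 CPM. With the adjusted p alone, 5 of these 7 were lower and 1 higher in 5 libraries. Of the 15 T cell markers 14 were then higher, of the 7 cone markers 7 and of the 8 rod markers 6, with 0 lower in each list. By that measure 1431 of all 20241 tested genes were lower and 1899 higher. Of 9 tested amacrine markers, 1 was called higher and 1 lower in both fits. Of 8 microglia and macrophage markers 1 was called higher, and of 2 tested horizontal cell markers 1 lower, also in both. None of the B and plasma cell, bipolar, astrocyte or endothelial and mural markers was called. In bulk libraries like these, fewer cells of a type and less RNA per cell cannot be told apart. The part of these shifts in the results that follow was not tested.

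The targeted gene was examined before the members. *Ezh2*, the histone methyltransferase of Polycomb complex PRC2, was at 28.8, 34.6 and 33.0 CPM in the GFP libraries and at 78.0, 65.3 and 104.8 CPM in the Ezh2 libraries. Its log2 fold change was 1.17 ± 0.0857 (SE, adjusted p = 1.56e-07, edgeR) in 5 libraries and 1.41 ± 0.18 (adjusted p = 0.00801, edgeR) in 6.

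To ask whether RGC identity and axonal cytoskeleton genes changed with *Ezh2* overexpression, the groups were compared gene by gene. Here "called" means that the adjusted p (Benjamini-Hochberg, over all tested genes) was below 0.05 and the fold exceeded 1.5. In 5 libraries 3 of the 10 genes were called higher (*Nefh*, *Tubb3* and *Stmn2*) and 0 were called lower, where 2.45% of the 20241 tested genes were called higher and 1.27% lower. In 6 libraries 3 were called higher (*Nefl*, *Nefh* and *Tubb3*) and 0 lower, beside 1.6% and 0.811% of 19732 tested genes. Leaving any 1 of the GFP libraries, Ezh2 replicate 1 or Ezh2 replicate 2 out of these 6 left 0 of the 10 genes called. At an unadjusted p under 0.05, 6 of the 10 genes passed in each fit, beside 28.9% of all tested genes in 5 libraries and 25.5% in 6, and DESeq2 also called 0 of them lower. With the adjusted p alone 5 were higher in 5 libraries, beside 9.38% of all tested genes. The log2 fold change was positive for all 10 genes in 5 libraries and for 9 in 6, beside 48.7% and 51% of all tested genes. The median log2 fold change over the 10 genes was 0.37 in 5 libraries and 0.46 in 6, against -0.0078 and 0.0083 over all tested genes. It was 0.33 and 0.74 over the T cell markers, and 0.52 and 0.37 over the rod markers. Over the cone markers it was 1.18 and 0.97, and over the Müller glia markers -0.22 and -0.30. The groups did not overlap, with Ezh2 higher, for 7 of the 10 genes in 5 libraries and for 6 in 6, beside 21.5% and 14.9% of all tested genes.

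**Figure D2:**
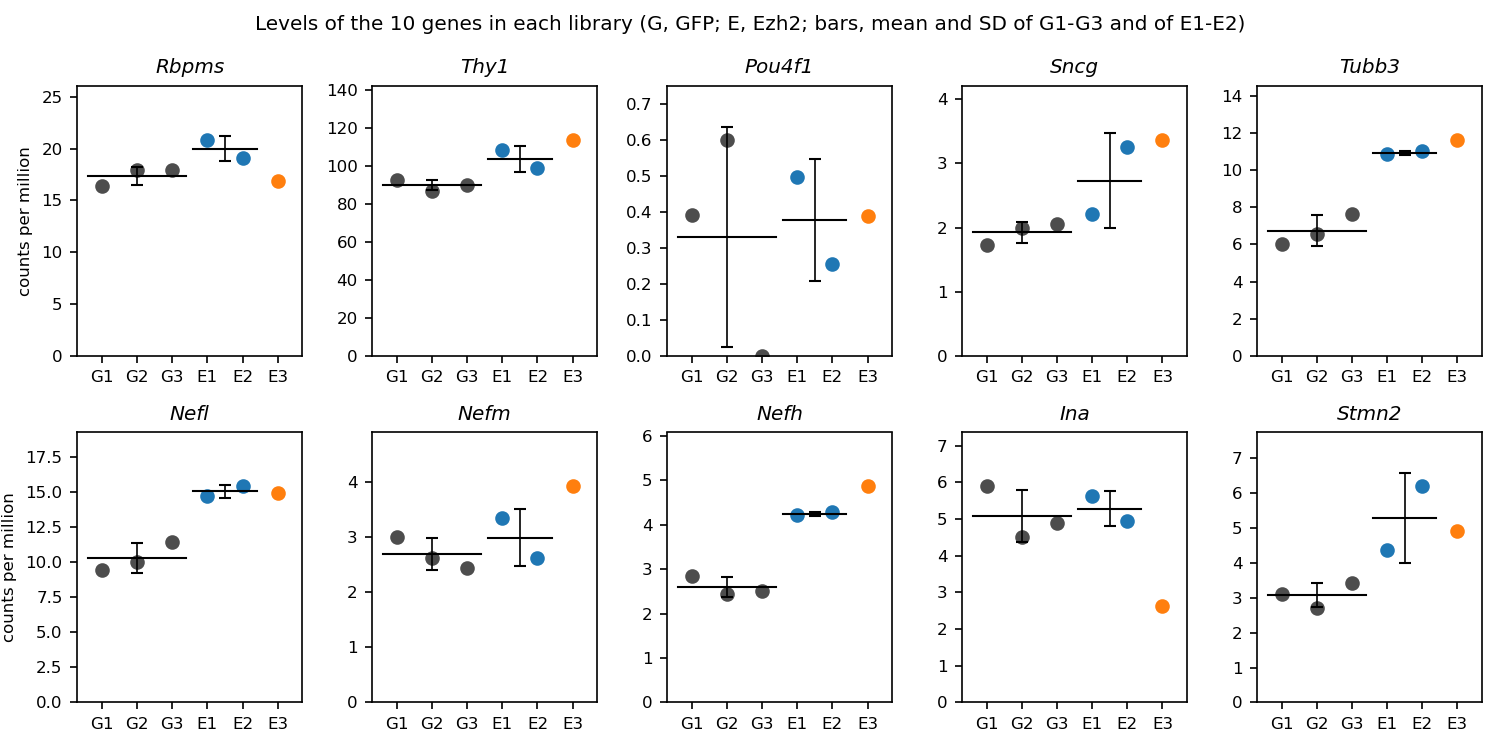
CPM of each of the 10 genes in the 6 libraries (G, GFP, grey; E, Ezh2, blue, with replicate 3 in orange), with the mean and SD of the 3 GFP libraries and of Ezh2 replicates 1 and 2. Every Ezh2 library lies above every GFP library for *Thy1*, *Sncg*, *Nefl*, *Nefh*, *Tubb3* and *Stmn2*, and *Ina* in Ezh2 replicate 3 lies below all other libraries.

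Of the cytoskeleton genes, *Tubb3* was considered first. It encodes class III beta tubulin, the neuronal beta tubulin. It was at 6.02, 6.57 and 7.65 CPM in GFP replicates 1 to 3 and at 10.9, 11.0 and 11.6 CPM in Ezh2 replicates 1 to 3. All Ezh2 libraries lay above all GFP libraries. *Tubb3* rose by 0.71 ± 0.14 on the log2 scale in 5 libraries (SE, adjusted p = 0.00224, edgeR) and by 0.77 ± 0.14 in 6 (adjusted p = 0.0258, edgeR). The call held when any 1 of the 5 libraries was left out. Its counts relative to those of *Tubb5*, the most abundant tubulin of the list per length, were 0.0131 to 0.0164 in the GFP group and 0.0179 to 0.0204 in the Ezh2 group, which did not overlap.

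*Stmn2*, a neuronal stathmin also called SCG10, was at 3.11, 2.72 and 3.42 CPM in the GFP libraries and at 4.38, 6.19 and 4.92 CPM in the Ezh2 libraries. The groups did not overlap, and Ezh2 replicate 2 was the highest. *Stmn2* rose by 0.79 ± 0.22 on the log2 scale in 5 libraries (SE, adjusted p = 0.0199, edgeR). With all 6 libraries the log2 fold change was 0.79 ± 0.20, but the adjusted p was 0.0664 (edgeR) and it was not called. Of the 5 libraries, it was also not called without GFP replicate 2 (0.71) or without Ezh2 replicate 2 (0.51). Relative to *Stmn1*, the widely expressed stathmin, chosen after the values were seen, its counts were at 0.0578 to 0.0738 in the GFP group and 0.0944 to 0.126 in the Ezh2 group. *Stmn3* and *Stmn4*, also named after their values were seen, were not called. *Stmn3* had a log2 fold change of 0.30 ± 0.18 (SE) in 5 libraries and 0.098 in 6. *Stmn4* was negative, at -0.39 ± 0.18 in 5 libraries and -0.43 in 6.

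Of the 4 neurofilament genes, *Nefh* was called in both fits, *Nefl* in 6 libraries, and *Nefm* and *Ina* in neither; differences between these genes were not tested. *Nefh*, the heavy chain, was at 2.85, 2.43 and 2.51 CPM in the GFP libraries and at 4.22, 4.28 and 4.87 CPM in the Ezh2 libraries, with no overlap. It rose by 0.72 ± 0.21 on the log2 scale in 5 libraries (SE, adjusted p = 0.0291, edgeR) and by 0.82 ± 0.19 in 6 (adjusted p = 0.0473, edgeR). These counts were small, between 77 and 87 in the GFP libraries and between 136 and 175 in the Ezh2 libraries. The call was lost when GFP replicate 2, GFP replicate 3, Ezh2 replicate 1 or Ezh2 replicate 2 was left out of the 5 libraries (log2 fold changes 0.68, 0.70, 0.75 and 0.70).

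*Nefl*, the light chain on which the filament is built, was at 9.42, 10.02 and 11.5 CPM in the GFP libraries and at 14.8, 15.4 and 14.96 CPM in the Ezh2 libraries. These groups were also apart. Its log2 fold change was 0.56 ± 0.12 in 5 libraries (SE, adjusted p = 0.00314, edgeR), a fold of 1.47 that stayed under the fold threshold. In 6 libraries it was 0.59 ± 0.12 (adjusted p = 0.0341, edgeR), a fold of 1.5002 that lay just past the threshold. The difference between these calls is thus one of thresholds, and the log2 fold changes differed by less than their SE.

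*Nefm*, the medium chain, was at 3.01, 2.62 and 2.44 CPM in the GFP libraries and at 3.35, 2.63 and 3.92 CPM in the Ezh2 libraries. Here the groups overlapped, and the log2 fold change was 0.16 ± 0.24 in 5 libraries (SE, adjusted p = 0.715, edgeR) and 0.34 ± 0.23 in 6 (adjusted p = 0.388, edgeR). *Nefl* and *Nefm* lie on opposite strands of chromosome 14, with the annotated span of *Nefl* inside that of *Nefm*, and their annotated exons share 1108 bases, 32.8% of the exon bases of *Nefl* and 19.2% of those of *Nefm*. Whether counting used the strand is not given in the sources used here, so reads in the shared stretch could have been counted for either gene or for neither.

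*Ina*, which encodes alpha-internexin, was at 5.89, 4.52 and 4.88 CPM in the GFP libraries and at 5.62, 4.94 and 2.64 CPM in the Ezh2 libraries. Ezh2 replicates 1 and 2 fell within the GFP range and Ezh2 replicate 3 far below it. The log2 fold change was 0.06 ± 0.18 in 5 libraries (SE, adjusted p = 0.871, edgeR) and -0.18 ± 0.27 in 6 (adjusted p = 0.699, edgeR), and the sign also turned within the 5 libraries without GFP replicate 2 or without Ezh2 replicate 1 (-0.02 each). A stretch of 456 bases, 14.1% of its exon bases, overlaps *Nt5c2* on the opposite strand.

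Taken per length, *Nefl* made up 53.2% ± 4.84 (SD, n = 3) of the summed level of the 4 neurofilament genes in the GFP group, 58.2% ± 2.48 (n = 2) in Ezh2 replicates 1 and 2 and 62.0% in Ezh2 replicate 3. The share of *Ina* was 27.4% ± 3.25, 21.2% ± 1.70 and 11.4% in the same order. *Nefh* held 11.3% ± 0.839, 13.9% ± 0.295 and 17.1%, and *Nefm* 8.12% ± 0.938, 6.73% ± 1.08 and 9.50%. The shares of *Ina* and *Nefh* did not overlap between the groups, while those of *Nefl* and *Nefm* did. These shares add up to a whole, so they are not independent of each other.

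**Figure D3:**
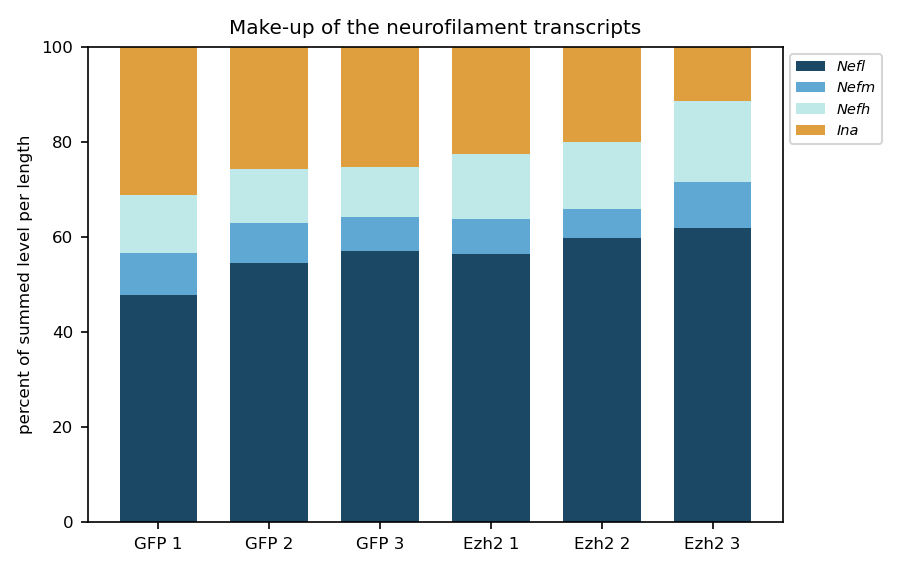
Share (percent) of *Nefl*, *Nefm*, *Nefh* and *Ina* in their summed level per length, in each of the 6 libraries. The *Ina* share lies between 25.3% and 31.1% in the GFP libraries and between 11.4% and 22.4% in the Ezh2 libraries.

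None of the 4 identity genes was called. *Thy1* was at 92.6, 87.2 and 90.3 CPM in the GFP libraries and at 108.8, 98.9 and 113.8 CPM in the Ezh2 libraries, and the groups did not overlap. Its log2 fold change was 0.22 ± 0.0575 in 5 libraries (SE, adjusted p = 0.0164, edgeR), a fold of 1.16 under the threshold, and 0.29 ± 0.0838 in 6 (adjusted p = 0.0868, edgeR). Counts of *Thy1* were 2.30 to 2.46 times those of *Cd3e*, a chain of the T cell receptor complex, in the GFP group. They were 2.13, 2.23 and 1.28 times in Ezh2 replicates 1, 2 and 3. Per length, the GFP means of *Thy1* and *Cd3e* were 30.1 and 9.37 CPM per kilobase of merged exons. *Cd3e* itself was at 37.6 to 39.1 CPM in the GFP group and at 51.0, 44.4 and 89.2 CPM in the Ezh2 group. The part of T cell RNA in the *Thy1* counts was not tested.

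*Rbpms*, an RNA-binding protein widely used as a marker of all RGCs, was at 16.4, 17.9 and 17.9 CPM in the GFP libraries and at 20.8, 19.1 and 16.8 CPM in the Ezh2 libraries. The groups were apart only without Ezh2 replicate 3. Its log2 fold change was 0.21 ± 0.0922 in 5 libraries (SE, adjusted p = 0.143, edgeR) and 0.16 ± 0.10 in 6 (adjusted p = 0.366, edgeR).

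*Sncg*, gamma-synuclein, was at 1.73, 1.99 and 2.05 CPM in the GFP libraries and at 2.20, 3.25 and 3.36 CPM in the Ezh2 libraries. The groups did not overlap, but Ezh2 replicate 1 lay close to the GFP libraries. The log2 fold change was 0.52 ± 0.27 in 5 libraries (SE, adjusted p = 0.225, edgeR) and 0.66 ± 0.25 in 6 (adjusted p = 0.155, edgeR). Of the 5 libraries, leaving out Ezh2 replicate 2 gave 0.19 and leaving out Ezh2 replicate 1 gave 0.78. *Pou4f1*, the transcription factor also called Brn3a, had 0 counts in GFP replicate 3, which allows up to 0.0976 CPM. Its log2 fold change was 0.18 ± 0.87 (SE, adjusted p = 0.922, edgeR) in 5 libraries and 0.23 ± 0.86 (adjusted p = 0.885, edgeR) in 6. No difference was detected, with counts of 0 to 19 that varied widely between GFP libraries of similar totals.

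**Figure D4:**
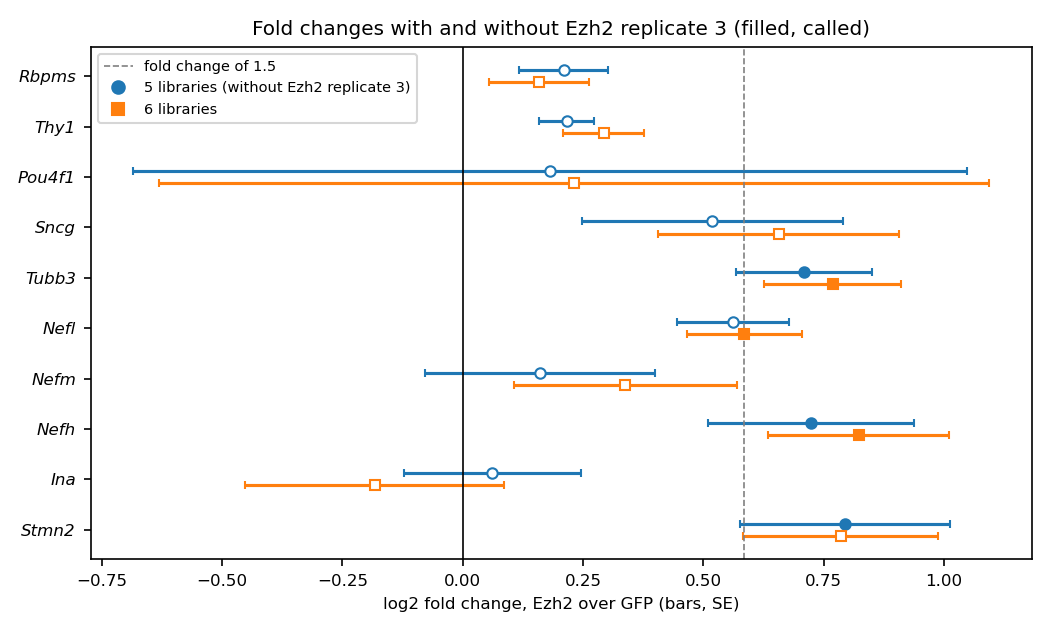
Log2 fold change of Ezh2 over GFP with its SE for each of the 10 genes, in 5 libraries (circles) and in 6 (squares), with filled marks for called genes and a dashed line at a fold of 1.5. *Nefh* and *Tubb3* are filled in both fits, *Stmn2* only in 5 libraries and *Nefl* only in 6, and *Ina* changes sign between the fits.

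RefSeq promoter sequence was at hand for *Tubb3*, *Ina*, *Pou4f1* and *Sncg*, as the 250 bases before the start site on mouse build GRCm38.p6. *Tubb3*, called in both fits, and *Ina*, called in neither, are shown 5′ to 3′ to set a cytoskeleton gene that rose beside one that was not called. For *Tubb3* only the 121 bases outside the GENCODE gene are printed, chr8:123411303-123411423 on the plus strand, since the other 129 bases lie inside it. *Ina* is given in full, chr19:47014431-47014680 on the plus strand. Capitals mark any of the 11 motifs searched, on either strand.
Tubb3: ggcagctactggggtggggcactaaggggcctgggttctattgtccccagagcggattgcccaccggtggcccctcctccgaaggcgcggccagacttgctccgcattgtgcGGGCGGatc
Ina: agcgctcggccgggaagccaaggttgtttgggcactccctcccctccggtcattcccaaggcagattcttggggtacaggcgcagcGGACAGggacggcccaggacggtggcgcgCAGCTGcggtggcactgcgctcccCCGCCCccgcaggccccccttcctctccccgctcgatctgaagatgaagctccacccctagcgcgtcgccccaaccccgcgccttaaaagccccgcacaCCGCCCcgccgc
The motif GGGCGG, the GC box, was found in all 4 windows of 250 bases and in 32.7% of all 32851 windows of that length. *Tubb3* also held CCAAT (33.8% of all windows) and CAGCACC (5.73%), both in the stretch not printed. *Ina* held GGACAG (18.7%), which like CAGCACC is part of the element bound by the repressor REST, and also held CAGCTG (13.0%), an E-box. *Pou4f1* held CAGCTG as well, and *Sncg* held CAGATG (14.4%). The other motifs searched, each found in none of the 4 windows, were TATAAA (12.4% of all windows), CATAAT (7.06%), ATTAAT (4.39%), CACGTG (6.02%) and TGACGTCA (1.55%). No 2 different motifs overlapped. CpG dinucleotides numbered 47 in *Pou4f1*, 25 in *Ina*, 21 in *Tubb3* and 7 in *Sncg*, against a median of 6 over all windows. These matches describe letters in the sequence and do not mark sites of binding.

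Genes with related roles were then read for comparison. Over 7 lists holding 76 genes, 69 were tested in 5 libraries and 5 of them (7.25%) were called, 4 higher and 1 lower, beside 3.73% of all tested genes. In 6 libraries 5 of 68 were called, beside 2.41%.

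Other RGC genes held 3 of the 4 that rose. *Cartpt*, a neuropeptide precursor of some RGC types, had 30, 16 and 13 counts in the GFP libraries and 86, 101 and 56 counts in the Ezh2 libraries, and rose by 2.13 ± 0.36 on the log2 scale (SE) in 5 libraries and by 1.92 in 6. *Ebf3*, a transcription factor, had 111, 116 and 128 counts against 335, 310 and 256, and rose by 1.34 ± 0.16 in 5 libraries and by 1.24 in 6. *Eomes*, a transcription factor of a subset of RGCs that is also made by T cells, had 60, 50 and 56 counts against 119, 96 and 79. It rose by 0.85 ± 0.26 in 5 libraries and was not called in 6 (log2 fold change 0.72). The other 11 tested genes of the list were not called, and 6 of the 14 were negative. With the adjusted p alone, 3 of the 14 were higher and 2 (*Foxp2* and *Jam2*) lower in 5 libraries. By that measure 1899 of all 20241 tested genes were higher and 1431 lower. *Foxp2*, named after its values were seen, was at -0.56 ± 0.16 (SE, adjusted p = 0.0247, edgeR), under the fold threshold, and at -0.73 in 6 libraries. *Jam2*, the highest of the list per length, had a log2 fold change of -0.32 ± 0.0553, under the fold threshold. The cells behind its counts were not tested.

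The remaining cytoskeleton lists gave few calls, with values for 5 libraries unless 6 are named. With the adjusted p alone, 4 of 15 microtubule-associated proteins and stathmins were lower and 1 higher. Of 10 membrane skeleton genes 3 were lower and 0 higher, and of 12 motor genes 5 were lower and 1 higher. Of 10 other tubulins 0 were lower and 2 higher, and of 6 other intermediate filament genes 1 was lower and 1 higher. Of all 20241 tested genes, 1431 were lower and 1899 higher by that measure. None of 10 other tubulins was called, and their log2 fold changes lay between -0.25 and 0.35, with *Tubb5* at 0.23. None of 15 tested microtubule-associated proteins and stathmins was called, 11 of them were negative and the list's median was -0.15 (-0.17 in 6), with *Dpysl2*, the highest per length, at -0.14. *Gfap*, the filament protein of astrocytes and reactive Müller glia, rose by 1.01 ± 0.0696 in 5 libraries and by 0.97 in 6, and was the only call among 6 other intermediate filament genes. *Vim*, the highest of that list, was at 0.13. Of these 6 genes 5 were positive, and the list's median was 0.42 (0.37 over the 5 tested in 6 libraries).

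As above for 5 libraries, none of 10 genes of the axonal membrane skeleton was called, 7 were negative, and *Sptan1*, alpha-II spectrin, was at -0.07. Of 12 motor genes, 10 were negative and 1 was called, *Dync1i1*, an intermediate chain of dynein. It had 350, 408 and 384 counts in the GFP libraries and 145, 158 and 90 counts in the Ezh2 libraries, and fell by 1.43 on the log2 scale in 5 libraries and by 1.65 in 6. *Kif1a*, the highest motor per length, was at -0.20. In 6 libraries *Dynll1*, a dynein light chain named after its values were seen, was also called, at 0.63. *Sncb*, beta-synuclein, was not called, at -0.43 ± 0.13 in 5 libraries and -0.64 ± 0.22 in 6. Counts of *Sncg* relative to *Sncb* were 0.137 to 0.190 in the GFP group and 0.257 to 0.716 in the Ezh2 group.

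**Figure D5:**
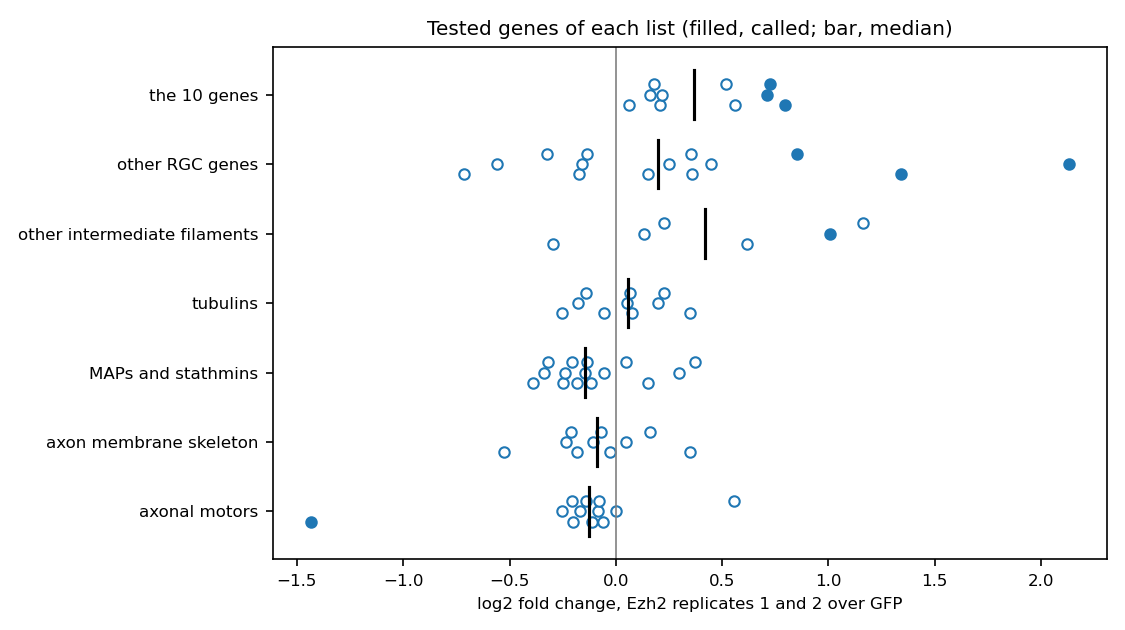
Log2 fold change of Ezh2 replicates 1 and 2 over GFP for the 10 genes and for every tested gene of 6 related lists, with filled marks for called genes and a bar at each median. The medians are 0.37 for the 10 genes, 0.20 for other RGC genes, 0.42 for other intermediate filaments and 0.059 for tubulins. They are -0.15 for microtubule-associated proteins and stathmins, -0.089 for the membrane skeleton and -0.13 for motors.

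The pattern of the neurofilament genes over the 6 libraries was also compared with that of other genes. Among 13765 genes with at least 100 counts on average, those whose log2 CPM followed the mean standardized level of *Nefl*, *Nefm*, *Nefh* and *Ina* most closely were *Dhx38*, *Snx20*, *Art2b*, *Igkv4-57-1* and *Acot9*, with Pearson r from 0.983 to 0.996 over 6 libraries. Antibody V genes such as *Igkv4-57-1* may share reads with near-identical copies. The 4 neurofilament genes are part of that mean, and had r = 0.84 (*Nefl*), 0.69 (*Nefm*), 0.94 (*Nefh*) and -0.17 (*Ina*) with it. The members outside it had r = 0.92 (*Thy1*), 0.85 (*Tubb3*), 0.80 (*Stmn2*), 0.59 (*Sncg*), 0.50 (*Rbpms*) and 0.34 (*Pou4f1*). The libraries share their group, so these values describe 6 points and are not tested.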

How the data were processed

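The table deposited by the authors held raw read counts per Ensembl gene. Per the labels, RNA from the sorted cells was made into libraries with a stranded total RNA kit, and the submitters' processing notes name STAR 2.7.0d and build GRCm38. The counter, annotation release and strand setting are not given in the sources used here. Of 55573 identifiers, 55480 matched GENCODE M21, which supplied symbols, positions and merged exon lengths. Totals ranged from 30569933 to 35971192 counts, so a count of 0 allows (up to 3 counts) 0.0834 to 0.0981 CPM, for counting error only.

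Counts were filtered (filterByExpr), scaled (TMM) and fitted on group alone in edgeR 4.0.16 (quasi-likelihood F test, default options) under R 4.3.3, with two-sided p values and Benjamini-Hochberg adjustment over all tested genes. The excluded library's name is inferred from the study's heatmaps. SE came from the F statistic. CPM used library totals. The fit was tested on simulated data. No source says that replicates were separate animals, so p values measure only the spread between these samples. Alternatives were DESeq2 1.42.0, limma-voom 3.58.1 with quality weights, a replicate block, each library left out, other scalings, filters and thresholds, and thinning. A further 3 option sets of edgeR were added after the data were seen. The members and lists were chosen with earlier results of these data known. Genes named beyond the 10 were each related list's called genes and its highest per length, fixed markers of other cells and the 5 genes most like the neurofilament mean; exceptions are stated. Some genes of the related lists are not reported here by name.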

Additional observations from a re-analysis of the deposited data

How the results depend on the processing

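Depth limits *Pou4f1* most, with at most 19 counts in a library. In 5 libraries *Tubb3* was called under all 18 alternatives, *Stmn2* was lost under 3 (adjusted p from 0.00586 to 0.310 over all of them) and *Nefh* under 5 (0.0174 to 0.146). In 6 libraries *Nefl* was lost under 8 of 12 alternatives (0.00138 to 0.164), *Nefh* and *Tubb3* under 6 each. Leaving out 1 library of the 5 gave between 1 and 3 members called, all higher, with 1 without GFP replicate 2 or without Ezh2 replicate 2, and a median of 0.38 to 0.54. Leaving out 1 of the 6 gave between 0 and 3 called, with 0 without any 1 of the GFP libraries, Ezh2 replicate 1 or Ezh2 replicate 2, and a median of 0.37 to 0.62. All genes called then ranged from 93 to 754, 63 to 496 higher and 30 to 258 lower. Adding Ezh2 replicate 3 to the 5 libraries lowered all calls from 754 to 476 (316 higher, 160 lower) and moved the median to 0.46. Without the fold threshold 3330 genes (1899 higher, 1431 lower) and 5 members, *Thy1* and *Nefl* in addition, were called. With a filter at 50 counts the median was 0.51. In 6 libraries DESeq2 called 938 genes (671 higher, 267 lower). limma-voom with quality weights called 821 genes (538 higher, 283 lower), with a median of 0.51 over the members.

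The sign of *Ina* changed with all 6 libraries (-0.18), without GFP replicate 2 (-0.02) and without Ezh2 replicate 1 (-0.02), and from the 6 libraries to 0.061 without Ezh2 replicate 3 and to 0.055 with limma-voom. *Pou4f1* turned negative without GFP replicate 3 (-0.40 in 5 libraries, -0.34 in 6), without Ezh2 replicate 1 (-0.34) and with the replicate block in 5 libraries (-0.41). *Nefm* was at -0.0097 without Ezh2 replicate 1. With 1 library left out, *Pou4f1* ranged from -0.40 to 0.93 in 5 libraries and from -0.34 to 0.98 in 6, *Ina* from -0.02 to 0.18 and from -0.38 to 0.06, and *Nefm* from -0.0097 to 0.32 in 5. The cause of these changes was not tested. Samples of 1 replicate number did not deviate together from their group means (correlations -0.0055, -0.020 and -0.011). The Ezh2 mean included replicate 3, which stood apart, so these values cannot decide whether samples of 1 number were paired. With the replicate block, 6 libraries gave 274 calls (186 higher, 88 lower), 0 members called higher or lower and a member median of 0.55. With the length of the longest transcript, levels in the GFP group were 51.9 for *Thy1*, 6.83 for *Rbpms*, 0.903 for *Stmn2* and 0.731 for *Nefm* CPM per kilobase.

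The edgeR options were compared after the data were seen. The default options called 754 genes in 5 libraries, the robust fit 770, the newer quasi-likelihood method 802 and both together 792, and in 6 libraries 476, 498, 493 and 523. The default was kept, and the same member calls were made under all 4 in both fits.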
